A study of Brassica rapa with 12 samples.

Results

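Buds and stems of Brassica rapa plants in which BrCHR39 had been silenced differed in most of their genes, and the differences were in good part not those of wild type. The comparison takes 6 of the series' 12 messenger RNA libraries, chosen by their labels: 3 silenced bud libraries against 3 silenced stem libraries, all from plants 8 weeks old. The other 6 libraries, 3 of wild type buds and 3 of wild type stems of the same age, serve as the measure of which tissue differences remained or were lost. Brassica rapa is the crop species of Chinese cabbage, pak choi and turnip. The silenced plants are given only as BrCHR39-silenced lines. The sources used here do not give how the gene was silenced, how many lines were used or whether the 3 libraries of a group come from separate plants. The p-values therefore rest on the spread among libraries that may be technical replicates. The kind of bud is not stated either.

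BrCHR39 is described in the series as an ATPase of the chromatin remodelling kind. Such enzymes use the energy of ATP to slide, restructure or evict nucleosomes and so change which stretches of DNA the transcription machinery can reach. The series links the gene to apical dominance, the restraint of side shoots by the growing tip, in which auxin moving down the stem holds buds back and strigolactones and cytokinins act in the bud. That signalling concerns side buds, and whether the buds sampled here were such is not known. A comparison of them within silenced plants asks which differences between the organs exist when the remodeller is low.

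The genes carry identifiers without names. One of the 41020 identifiers, Bra000116, had an entry in the RefSeq gene table. The entry lists SWEET9, a sugar transporter of nectaries, among its synonyms, and the gene had 0 reads in all 12 libraries. The silenced gene and the markers of bud, stem or other cell types could therefore not be looked up, and neither the silencing nor the tissue labels were checked on them. Reads assigned to genes numbered 13707546 to 15607095 in the 6 silenced libraries and 12275190 to 15693349 over all 12. The correlation between libraries within a group was 0.990 to 0.992, taken on the log2 of CPM, a read count adjusted for the size of its library. Beyond counting noise, the common coefficient of variation among libraries of a group, as fitted by edgeR, was 2.89%. The p-values rest on this small spread, and whether it is a spread between plants is not known. In bulk tissue fewer cells of a type and less RNA per cell cannot be told apart.

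In silenced plants 15498 of the 28114 genes with enough reads to test, 55.1%, differed between bud and stem by at least 2-fold. Of these, 7789 genes (27.7% of those tested) were higher in silenced buds and 7709 (27.4%) were lower, at an adjusted p under 0.05 (quasi-likelihood test of edgeR, Benjamini-Hochberg over all genes, 3 libraries against 3). In wild type a similar number differed, 15386 genes or 54.7%, but with 8650 (30.8%) higher and 6736 (24%) lower in bud. With no limit on size, the called share was 85.1% in silenced plants and 86.3% in wild type, and 8435 of the calls in silenced plants were under 2-fold. The counts that follow therefore keep the 2-fold limit.

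With TMM scaling, the largest differences leaned to stem in silenced plants and to bud in wild type. At 8-fold or more, 18.4% of the tested genes were called in silenced plants, 2366 of them (8.42% of those tested) higher in bud and 2806 (9.98%) lower. In wild type 18.3% were called at that size, 3187 (11.3%) higher in bud and 1953 (6.95%) lower. The balance between the tissues depends on how libraries are scaled. With library totals in place of TMM scaling, the median log2 fold change of bud over stem was 0.49 in place of 0.05 in silenced plants and 0.48 in place of 0.11 in wild type. The 2-fold calls then numbered 10450 higher and 5984 lower in silenced buds, against 10568 and 5210 in wild type buds, and the 8-fold calls in silenced plants turned to 2964 higher and 2295 lower, against 3833 and 1624 in wild type. The share of 8-fold calls that was higher in bud was smaller in silenced plants under every scaling and tool tried: 45.7% against 62.0% in wild type with TMM, 48.3% against 62.9% with limma on log2(FPKM + 1), and 56.4% against 70.2% with library totals, where the gap was narrowest.

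The difference between the genotypes was tested directly, as the bud to stem log2 fold change in silenced plants minus that in wild type. It was called for 20904 genes, 74.4% of those tested, and 13771 of these, 49% of those tested, differed by at least 2-fold. At 8-fold or more, 1220 genes (4.34%) had the higher bud to stem ratio in silenced plants and 2588 (9.21%) the lower one. Across all tested genes the log2 fold changes of both genotypes had a Pearson's r of 0.579 and a Spearman's rho of 0.520. These comparisons share no library, and the values describe genes, which are not independent replicates.

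**Figure D1:**
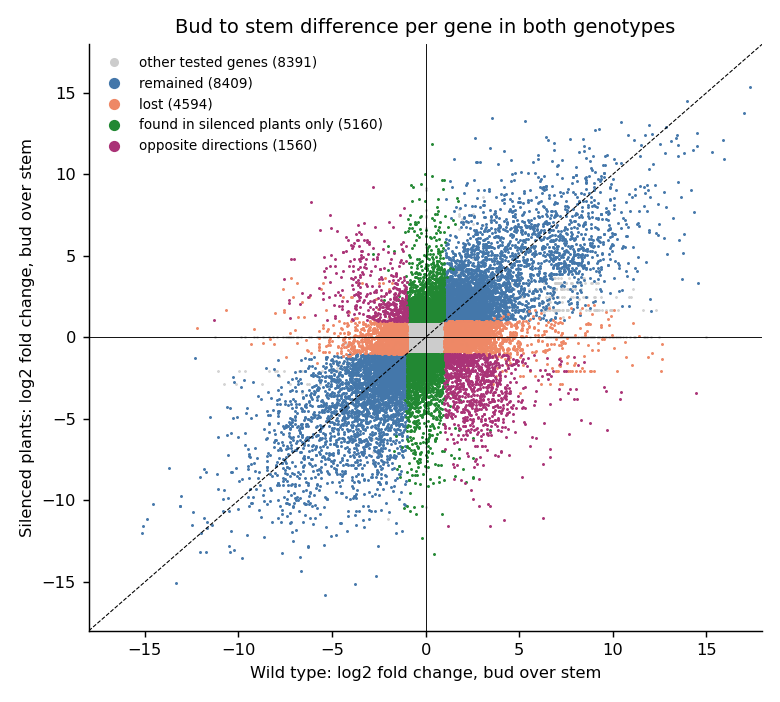
Log2 fold change of bud over stem in silenced plants (vertical axis) against that in wild type (horizontal axis), 1 point per tested gene, coloured by whether a difference of at least 2-fold remained, was lost, was found in silenced plants only or turned round. The 8409 genes that remained lie in the upper right and lower left, the 4594 lost genes along the horizontal axis, the 5160 genes of silenced plants along the vertical axis, and the 1560 with opposite directions in the other corners; the dashed line marks equal values.

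The genes fell into 4 groups by this test. A difference remained where it was called and at least 2-fold in the same direction in both genotypes. It was lost where it was so in wild type and not in silenced plants, and the difference between genotypes was itself called. It was found in silenced plants only where the reverse held. It was opposite where both genotypes had a called 2-fold difference in different directions. Genes called in 1 genotype without a called difference between genotypes were left unresolved.

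With the 2-fold limit and all 12 libraries fitted together, slightly more than 1 tissue difference in 2 remained. With each genotype fitted alone, 45.1% of the differences higher in wild type bud and 56.3% of those higher in wild type stem remained. Of the 15386 differences of wild type, 8409 or 54.7% had a 2-fold difference in the same direction in silenced plants, 4594 or 29.9% were lost, 1560 or 10.1% turned round and 823 or 5.35% were unresolved. Silenced plants held 5160 differences, 33.3% of their 15498, that wild type lacked. Differences found in silenced plants only outnumbered the losses, also under each of the other scalings, filters and tools tried.

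**Figure D2:**
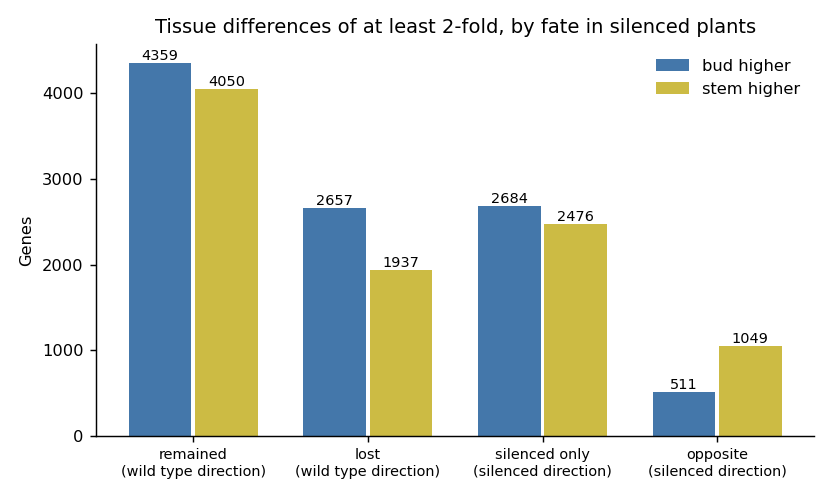
Number of genes (vertical axis) whose tissue difference remained, was lost, was found in silenced plants only or was opposite, split into higher in bud and higher in stem. Direction is that of wild type for remained (4359 and 4050) and lost (2657 and 1937), and that of silenced plants for silenced only (2684 and 2476) and opposite (511 and 1049).

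With TMM scaling, genes higher in stem kept their direction in a larger share than genes higher in bud, which library totals did not show. Of the 6736 genes higher in stem in wild type, 4050 or 60.1% were also at least 2-fold higher in silenced stems, where 27.4% of all tested genes were. Of the 8650 genes higher in bud in wild type, 4359 or 50.4% were also higher in silenced buds, where 27.7% of all tested genes were. With TMM scaling, turning round was more frequent for the bud genes: 1049, or 12.1% of them, were at least 2-fold higher in silenced stems, against 511, or 7.59%, of the stem genes that were higher in silenced buds. Both shares lie under the 27.4% and 27.7% of all tested genes. With library totals the share that remained was 57.2% of stem genes and 57.8% of bud genes, and the share that turned round was 10.2% of stem genes and 9.16% of bud genes, so neither order held. With limma on log2(FPKM + 0.1), which also divides by library totals, 57.0% of stem genes and 57.5% of bud genes remained, and 9.62% and 9.08% turned round. With library totals, 6106 of the genes that remained were higher in bud and 2980 in stem, as were 3529 and 1922 of those found in silenced plants only. The difference between the shares was not tested.

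With TMM scaling, some lost differences were reduced in size, and others were not called or were called the other way. The split by direction can depend on the scaling. Library totals gave all genes a median log2 fold change of 0.49 in silenced plants, in place of 0.05. Of the 4594 lost genes, 1844 were still called in the wild type direction in silenced plants at under 2-fold, 1673 were not called, and 1077 were called at under 2-fold in the other direction. In lost genes higher in wild type buds, the median log2 fold change of bud over stem was 0.12 in silenced plants and 2.01 in wild type. In lost genes higher in wild type stems it was -0.15 in silenced plants and -1.62 in wild type. Among the genes found in silenced plants only, 2400 had a called difference in the same direction but under 2-fold in wild type, 1672 had none called and 1088 had one in the other direction.

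Both tissues contributed to the losses. In the 2657 lost genes that were higher in wild type buds, silenced buds lay at a median log2 fold change of -1.09 from wild type buds and silenced stems at 0.88 from wild type stems. In the 1937 lost genes that were higher in wild type stems, the medians were 0.75 in bud and -0.78 in stem. These values share their libraries with the tissue comparisons and only show where the levels lay. With library totals the lost stem genes had a median of 0.30 between silenced buds and stems, so that its sign turned, while the median of all genes was 0.49. Summed over the lost bud genes, the level was 83699 ± 435 CPM in silenced buds and 76763 ± 306 CPM in silenced stems, against 175340 ± 912 CPM in wild type buds and 40332 ± 202 CPM in wild type stems (SD, n = 3 each). The lost stem genes summed to 71952 ± 136 CPM in silenced buds and 83314 ± 185 CPM in silenced stems, against 42153 ± 138 CPM in wild type buds and 141350 ± 360 CPM in wild type stems. In both sets the silenced tissues lay near each other, which follows from how lost genes were chosen. Their levels lay between those of the wild type tissues.

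For the differences that turned round, the larger move lay in the tissue that had held the gene. The 1049 genes higher in stem in silenced plants and in bud in wild type had a median log2 fold change of -3.45 in silenced buds over wild type buds and of 1.58 in silenced stems over wild type stems. They summed to 6259 ± 13.3 CPM in silenced buds and 27669 ± 25.9 CPM in silenced stems, against 38062 ± 145 CPM in wild type buds and 8168 ± 28.1 CPM in wild type stems. For the 511 genes turned the other way the medians were 1.34 in bud and -2.75 in stem. Their sums were 9092 ± 22.5 CPM in silenced buds and 2960 ± 11.6 CPM in silenced stems, against 4236 ± 45.5 CPM in wild type buds and 17323 ± 99.7 CPM in wild type stems. The groups were chosen by these levels, so the sums describe them and test nothing.

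Large differences of wild type remained in a larger share than small ones, more clearly in stem genes. The class rule favours this, since a large difference can shrink and still be at least 2-fold. In bud genes over 64-fold the median log2 fold change was 7.80 in wild type and 4.25 in silenced plants. In stem genes of that size it was -7.30 and -6.12. At 2 to 4-fold it was 1.43 and 0.79 in bud genes, and -1.41 and -0.94 in stem genes. Among genes 2 to 4-fold higher in wild type stems, 48.1% remained and 39.7% were lost. Among those over 64-fold higher in wild type stems, 83.8% of 494 remained and 5.26% were lost. For genes higher in wild type buds, 43.5% remained at 2 to 4-fold and 65.1% of 1162 at over 64-fold. Bud genes of 8 to 16-fold turned round most often, in 18.4% of 1152 cases. In the bud genes over 64-fold, 21.4% were unresolved, against 8.50% of the stem genes of that size.

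**Figure D3:**
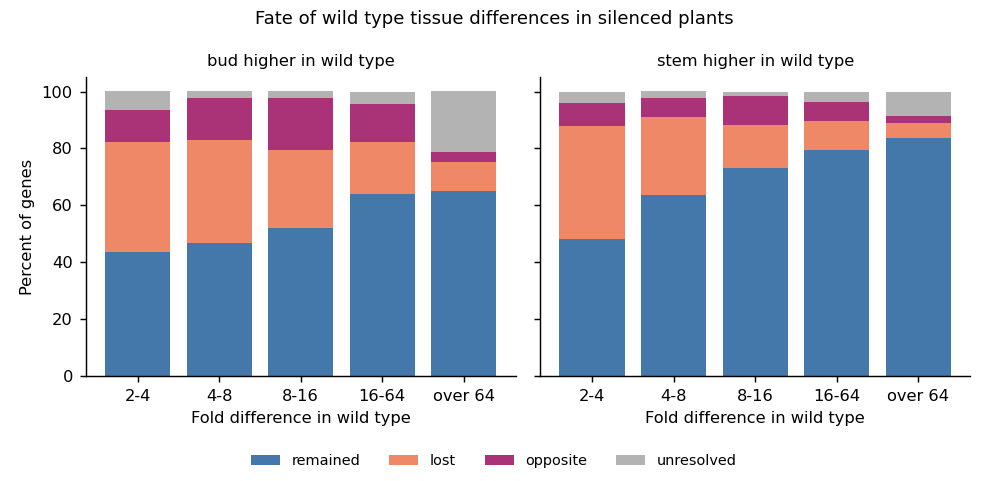
Percent of genes (vertical axis) whose wild type tissue difference remained, was lost, turned round or was unresolved in silenced plants, by the fold difference in wild type (horizontal axis), for genes higher in bud (left) and in stem (right). The share that remained goes from 43.5% to 65.1% in bud genes and from 48.1% to 83.8% in stem genes.

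The unresolved genes include some whose reads were gone from both silenced tissues. Of the 585 unresolved genes higher in wild type buds, 271 had at most 3 reads over all 6 silenced libraries, and 160 had none. Of the 238 unresolved genes higher in wild type stems, 97 had at most 3 reads and 64 had none. Most of these were low in wild type as well. An average of at least 5 CPM in a wild type tissue was reached by 62 of the 271 bud genes and 34 of the 97 stem genes. With no reads in either silenced tissue, a ratio of bud to stem has no value there and the test between genotypes cannot call it. The reverse was rarer: of the 369 genes unresolved because only silenced plants had a called difference, 39 had at most 3 reads over the 6 wild type libraries. The number of lost differences is therefore a lower count for bud and stem genes alike.

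Among the differences that remained, the size was often altered. In 4194 of the 8409 genes, 49.9%, the log2 fold changes of both genotypes lay within 1 of each other. The difference was at least 2-fold larger in silenced plants for 1854 genes and at least 2-fold smaller for 1292, by the test between genotypes. Among the 4050 stem genes, 1138 had a larger and 574 a smaller difference in silenced plants. Among the 4359 bud genes the numbers were 716 and 718. With library totals they were 856 and 447 for stem genes and 1083 and 1023 for bud genes. Stem genes that remained had a median log2 fold change of -2.79 in silenced plants and -2.39 in wild type, and bud genes one of 2.61 in silenced plants and 2.69 in wild type.

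**Figure D4:**
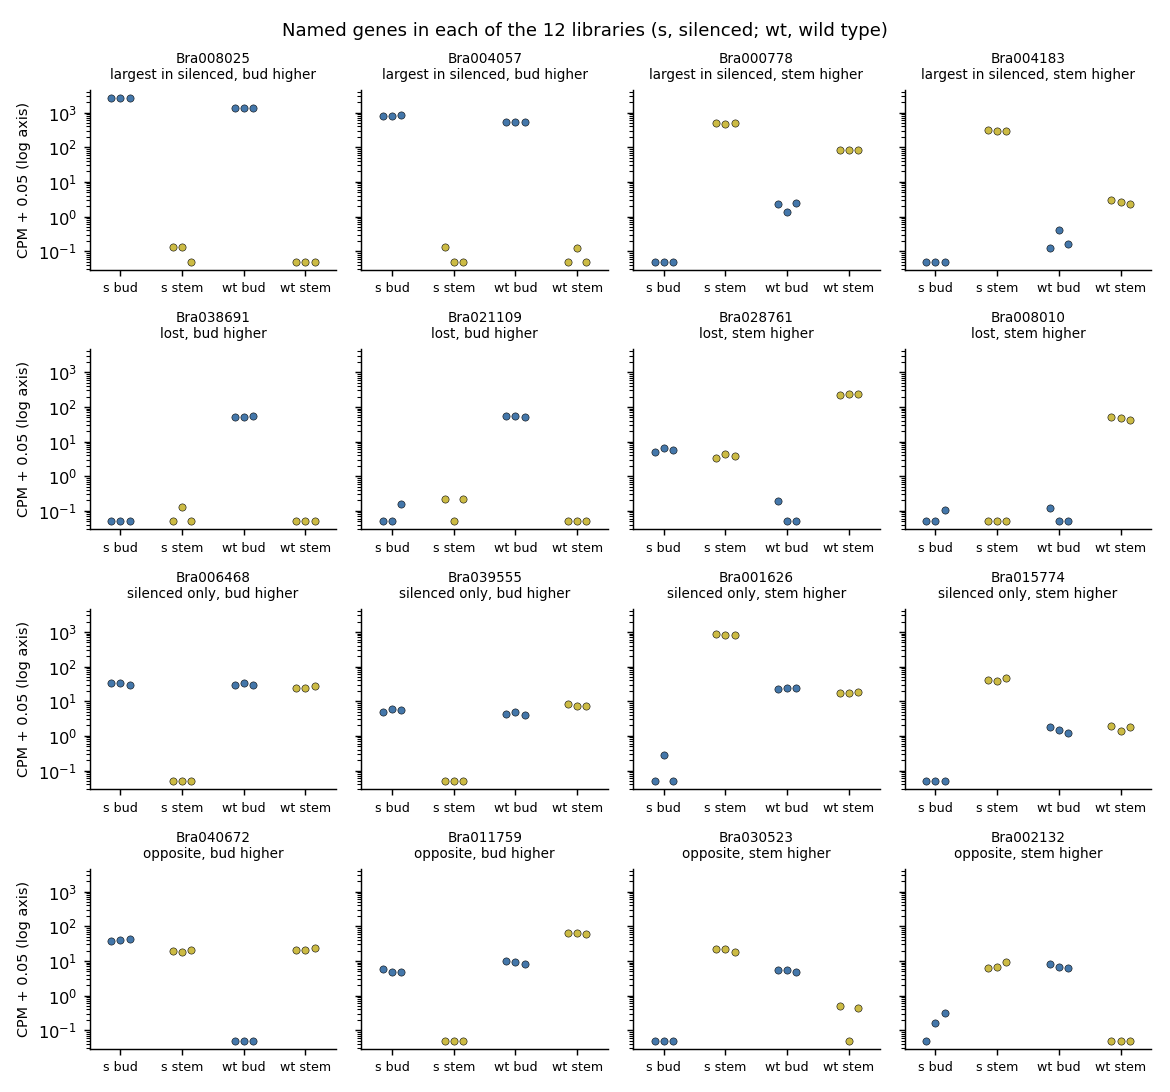
CPM plus 0.05 (vertical log axis) of 16 genes in each of the 12 libraries, 1 point per library, in silenced bud, silenced stem, wild type bud and wild type stem; points at the bottom are libraries with 0 reads. The first row shows genes with the largest fitted differences in silenced plants, the second lost differences, the third differences found in silenced plants only and the fourth opposite ones; Bra001626, for example, stands at 814 to 857 CPM in silenced stems and at 17.2 to 18.7 CPM in wild type stems.

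For the largest fitted differences between silenced bud and silenced stem, 4 genes were named, 2 per direction. All 4 also differed in the same direction in wild type. So did most genes over 64-fold in silenced plants: 86.5% of those higher in bud and 79.6% of those higher in stem remained. Where a tissue has 0 reads the fitted value depends on the model's prior count, so the order is one of fitted values and not of known size. Bra008025 (coding length 633 bases) had 2676, 2672 and 2683 CPM in the silenced bud libraries and 2 reads over the 3 silenced stem libraries, a ratio of 49223 (95% counting interval 13626 to 406450). In wild type it had 1402, 1384 and 1373 CPM in buds and 0 reads in stems, at least 18036-fold higher in bud. Buds and stems did not overlap in either genotype, and edgeR did not call the difference between genotypes (fitted log2 value -1.94, adjusted p = 0.226). With limma on log2(FPKM + 1) it was called with the other sign, at 0.92 (adjusted p = 8.56e-09), and on log2(FPKM + 0.1) it was 0.30 and not called (adjusted p = 0.377).

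Bra004057 (coding length 2676 bases) had 816, 813 and 827 CPM in silenced buds and 1 read over the silenced stem libraries. In wild type buds it had 544, 546 and 552 CPM, with 1 read over the wild type stem libraries. This gene too was at least as high in silenced buds as in wild type buds, and its tissue difference was not called different between genotypes by edgeR (adjusted p = 0.859; 0.302 to 1 over the other settings on counts). With limma it was called, at a log2 difference of 0.65 on log2(FPKM + 1) (adjusted p = 1.48e-06) and of 0.64 on log2(FPKM + 0.1) (adjusted p = 0.00503).

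On the stem side both genes so chosen had no reads left in silenced buds. Bra000778 (coding length 402 bases) had 0 reads in the silenced bud libraries and 513, 479 and 492 CPM in the silenced stem libraries, which puts bud at least 8587-fold lower. In wild type it had 2.32, 1.31 and 2.38 CPM in buds and 83.1, 82.5 and 82.0 CPM in stems, a log2 fold change of -5.37 ± 0.281 (SE, n = 3 each). Its reads in silenced buds were thus gone while those in silenced stems stood above wild type stems, and the difference between genotypes was called (adjusted p = 2.93e-43, edgeR).

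Bra004183 (coding length 1062 bases) followed the same pattern from a low wild type level. It had 0 reads in silenced buds and 314, 303 and 302 CPM in silenced stems, which puts bud at least 5324-fold lower. Wild type libraries had 0.0725, 0.357 and 0.113 CPM in buds and 2.96, 2.62 and 2.32 CPM in stems, a log2 fold change of -3.76 ± 0.693 (SE, n = 3 each). All libraries of silenced stems lay above all of wild type stems.

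The losses named for the largest fitted differences between genotypes came about in different ways. Bra038691 (coding length 1851 bases) had 0 reads in silenced buds and 1 read over the silenced stem libraries, against 49.9, 50.7 and 53.3 CPM in wild type buds and 0 reads in wild type stems. Bra021109 (coding length 2469 bases) had 2 reads over the silenced bud libraries and 4 over the silenced stem libraries, against 54.6, 54.3 and 52.6 CPM in wild type buds and 0 reads in wild type stems. Both genes were thus present in wild type buds, at least 669-fold over stem for Bra038691 and at least 700.5-fold for Bra021109, and close to absent from silenced plants. The call of Bra038691 between genotypes (adjusted p = 0.000119, edgeR) rests on its 1 read in silenced stem replicate 2, without which the adjusted p was 1. Without silenced bud replicate 3, Bra021109 had a called tissue difference in silenced plants, at a fitted log2 fold change of -3.73 and adjusted p = 0.0355 by edgeR.

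Bra028761 (coding length 975 bases) lost a stem difference while remaining detectable in both tissues. It had 4.88, 6.26 and 5.61 CPM in silenced buds and 3.32, 4.42 and 3.73 CPM in silenced stems, against 2 reads over the wild type bud libraries and 225, 237 and 243 CPM in wild type stems. The groups did not overlap in silenced plants, where bud was now the higher tissue at a log2 fold change of 0.55 ± 0.158 (SE, n = 3 each; adjusted p = 0.000505, edgeR). Bra008010 (coding length 1275 bases) had 1 read over the silenced bud libraries and 0 reads in silenced stems, against 1 read over the wild type bud libraries and 51.0, 47.7 and 41.9 CPM in wild type stems. Its call between genotypes (adjusted p = 0.000815, edgeR) was lost without silenced bud replicate 3, which held the read (adjusted p = 1).

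The genes named for a difference found in silenced plants only have the largest fitted values of their 5160 and do not stand for the rest, whose median shifts from wild type were 0.90 in bud and -0.61 in stem for bud genes, and -1.03 in bud and 0.67 in stem for stem genes (log2). Bra006468 (coding length 1344 bases) had 33.8, 33.5 and 29.9 CPM in silenced buds and 0 reads in silenced stems, at least 396-fold higher in bud. In wild type it had 30.4, 34.5 and 29.9 CPM in buds and 23.3, 23.3 and 28.2 CPM in stems, a log2 fold change of 0.35 ± 0.112 (SE, n = 3 each). The bud levels of both genotypes overlapped, and the stem level set the difference. Bra039555 (coding length 1317 bases) had 4.94, 6.09 and 5.44 CPM in silenced buds and 0 reads in silenced stems, against 4.13, 4.82 and 3.91 CPM in wild type buds and 8.11, 7.05 and 7.03 CPM in wild type stems. As in Bra006468, reads were present in both wild type tissues and absent from silenced stems. Unlike in that gene, all silenced bud libraries lay above all wild type bud libraries. Stem was the higher tissue in wild type, at a log2 fold change of -0.78 ± 0.114 (SE, n = 3 each; adjusted p = 7.86e-06, edgeR).

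Bra001626 (coding length 750 bases) had a ratio of means of 11000 in favour of silenced stem, above the lower bounds known for Bra000778 and Bra004183. It had 4 reads over the silenced bud libraries, all in replicate 2, and 857, 840 and 814 CPM in silenced stems. In wild type it had 22.8, 24.7 and 24.8 CPM in buds and 17.2, 17.6 and 18.7 CPM in stems, so the tissues were close and bud was the higher one. Bra015774 (coding length 918 bases) had 0 reads in silenced buds and 42.3, 37.9 and 48.0 CPM in silenced stems, so bud was at least 741-fold lower. Its wild type libraries overlapped between tissues, at 1.74, 1.43 and 1.19 CPM in buds and 1.82, 1.35 and 1.76 CPM in stems (log2 fold change -0.19 ± 0.209, SE; adjusted p = 0.497, edgeR).

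In the opposite group 1 tissue could stay level while the other moved. Bra040672 (coding length 249 bases) had 37.9, 40.8 and 44.0 CPM in silenced buds and 19.5, 17.9 and 20.1 CPM in silenced stems, a ratio of bud to stem of 2.13. In wild type it had 0 reads in buds and 20.2, 21.2 and 23.6 CPM in stems, at least 348-fold lower in bud. Its lowest wild type stem library, at 20.2 CPM, lay just above its highest silenced stem library, at 20.1 CPM. Bra011759 (coding length 1506 bases) had 5.75, 4.84 and 4.79 CPM in silenced buds and 0 reads in silenced stems, against 9.86, 9.29 and 7.98 CPM in wild type buds and 64.9, 62.3 and 58.8 CPM in wild type stems. Its bud level was lower too in silenced plants, yet bud had become the tissue with reads.

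Bra030523 (coding length 654 bases) had 0 reads in silenced buds and 21.6, 21.5 and 18.0 CPM in silenced stems, against 5.51, 5.60 and 4.64 CPM in wild type buds and 11 reads over the wild type stem libraries. Bra002132 (coding length 945 bases) had 7 reads over the silenced bud libraries and 6.39, 6.62 and 9.29 CPM in silenced stems, against 8.19, 6.73 and 6.28 CPM in wild type buds and 0 reads in wild type stems. In both genes the tissues exchanged places between the genotypes. The genes named here for the lost, silenced only and opposite groups were chosen for the largest fitted differences between genotypes. Their adjusted p-values in the test of that difference are therefore no separate evidence. Other than for Bra038691 and Bra008010, the largest was 1.83e-10 (edgeR).

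With TMM scaling, genes restricted to 1 tissue were as many on either side in silenced plants and mostly bud genes in wild type. Restricted here means 0 reads in all 3 libraries of a tissue and an average of at least 2 CPM in the other, limits chosen after the data were seen. In silenced plants 207 genes were restricted to bud and 207 to stem. In wild type 459 genes were restricted to bud and 85 to stem. With at least 5 CPM the numbers were 109 and 118 in silenced plants, and 232 and 53 in wild type. With library totals they were 232 and 191 in silenced plants, and 496 and 76 in wild type. Allowing up to 3 reads gave 376 and 438 in silenced plants, and 724 and 224 in wild type. A group with 0 reads could lie at up to 0.0576 CPM in silenced buds, 0.0816 CPM in silenced stems, 0.0622 CPM in wild type buds and 0.0768 CPM in wild type stems (3 reads over 3 libraries, counting error only).

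The restricted genes of the genotypes overlapped in part. Of the genes restricted to bud, 80 were shared, 38.6% of the 207 in silenced plants and 17.4% of the 459 in wild type. Of those restricted to stem, 30 were shared, 14.5% of the 207 in silenced plants and 35.3% of the 85 in wild type. The 459 bud-restricted genes of wild type left that class mostly through their bud level: 234 had no stem reads in silenced plants but fell under 2 CPM in silenced buds, 62 of them to 0 reads. Another 145 had reads in silenced stems, 6 of them at 2 CPM or more. The summed level of the 459 genes was 6352 ± 21.7 CPM in silenced buds and 10551 ± 59.9 CPM in wild type buds (SD, n = 3 each). Their most abundant member in wild type buds, Bra008025, went the other way, with 2677 CPM in silenced buds and 1386 CPM in wild type buds. It makes up a large part of the sum in silenced buds.

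The 207 stem-restricted genes of silenced plants mostly had some reads in wild type buds. This was so for 159 of them, but 14 reached 2 CPM there, and 18 had no wild type bud reads and stayed under 2 CPM in wild type stems. Their summed level was 3974 ± 59.0 CPM in silenced stems and 4967 ± 4.43 CPM in wild type stems. Their most abundant member in silenced stems was Bra000778, described above, at 495 ± 17.0 CPM. Of the 207 bud-restricted genes of silenced plants, 99 had reads in wild type stems, 17 of them at 2 CPM or more.

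Relative to all tested genes, long genes lay towards bud and short genes towards stem in silenced plants. Genes were split by coding length into 5 equal groups. In the longest group, from 1797 bases, the median log2 fold change of bud over stem was 0.34 in silenced plants and 0.11 in wild type. In the shortest group, up to 609 bases, it was -0.23 in silenced plants, where library totals gave 0.14 and so turned its sign, and 0.07 in wild type. The medians of all genes were 0.05 and 0.11, and with library totals 0.49 and 0.48. Of the longest genes 31.0% were at least 2-fold higher in silenced buds and 20.8% lower by as much, while of the shortest 24.2% were higher and 33.5% lower. Within each of 5 equal groups by expression level, the longest minus the shortest genes came to between 0.45 and 0.75 in silenced plants. In wild type the same measure was 0.94 at the lowest level and -0.10 at the highest.

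The silenced bud libraries stood apart in this respect from all others. Their reads came from genes with a mean coding length of 1512 to 1520 bases, against 1349 to 1354 in silenced stems, 1354 to 1362 in wild type buds and 1337 to 1343 in wild type stems. The longest of the 5 groups took 26.5% to 26.7% of the reads in silenced buds, and 20.1% to 21.3% in the other 9 libraries. Differences in RNA quality or library preparation between the groups were not tested, and their part in the tissue differences was not tested either.

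**Figure D5:**
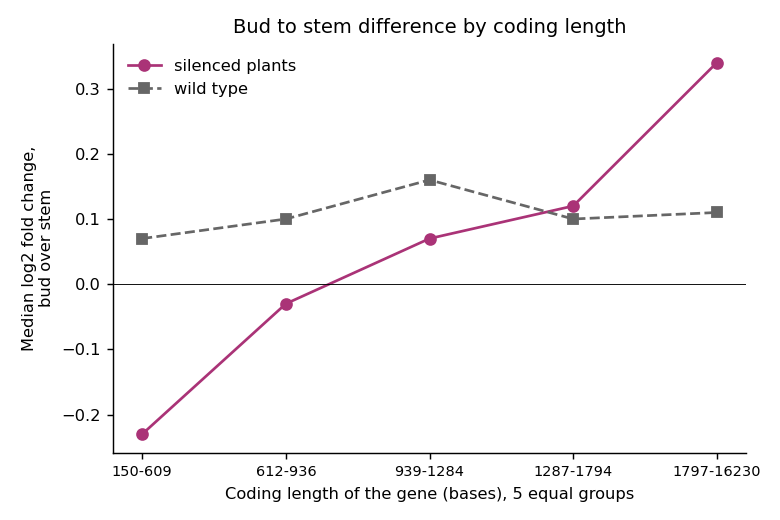
Median log2 fold change of bud over stem (vertical axis) in 5 equal groups of genes by coding length (horizontal axis, bases), in silenced plants (circles) and wild type (squares). In silenced plants the medians go from -0.23 in the shortest (0.14 with library totals in place of TMM) to 0.34 in the longest genes (0.79), and in wild type they lie between 0.07 and 0.16.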

How the data were processed

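Libraries were grouped by genotype and tissue as given in their titles, with 3 per group. The authors deposited raw read counts for 41020 genes, and FPKM values for 36230 of them (per the file headers, 1 column per library). Among the tools in the submitters' processing notes are featureCounts 2.0.1, HISAT2 2.1.0, TopHat2 and Bowtie 1.0.1, with no word on which did what. The sources used here give neither genome build nor strandedness. Each FPKM value was the count over the library total and a gene length; all 35651 lengths so recovered were multiples of 3, so they are coding lengths.

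Counts were tested with edgeR 4.0.16 (R 4.3.3): filterByExpr with a minimum count of 10 kept 28114 genes, scaling was by TMM, and the quasi-likelihood model had 1 term per group over all 12 libraries. A gene was called at a two-sided p under 0.05 after Benjamini-Hochberg adjustment over all genes tested. CPM values use TMM library sizes. A fold against 0 reads sets that group at 3 reads over its 3 libraries. SE values come from log2 CPM of the libraries. The method was tested on simulated counts. The comparisons, classes and gene lists were chosen with earlier results of these data known. The 12 gene lists planned matched no identifier and were not tested. Genes were named by a fixed rule: at most 2 per direction with the largest fitted value, no overlap between tissues and at least 5 CPM in the higher one. In the lost, silenced only and opposite groups that value was the difference between genotypes. How the authors counted reads that match several near-identical gene copies, common in this genome, is not stated, so such genes are uncertain. Alternatives were 3 other scalings, no filter, DESeq2 1.42.0, separate fits, the replicate block, other fold limits, limma 3.58.1 on the deposited FPKM, and leaving out each library.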

Additional observations from a re-analysis of the deposited data

Results flagged for a closer look

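The bud to stem difference differed between silenced plants and wild type for 20904 genes by edgeR's test of that difference (12 libraries). These were 74.4% of all genes tested. Of the 16 genes named, 14 are among them. Those of the lost, silenced only and opposite groups were chosen by this difference, so their calls are no separate result. The values below are fitted log2 fold changes of bud over stem in silenced plants minus wild type. Where a group has 0 reads, such a value depends on the model's small prior count and is no measure of size. Among the largest differences of silenced plants it was -10.46 for Bra000778 and -11.37 for Bra004183. Among the lost differences it was -14.63 for Bra038691, -13.95 for Bra021109, 12.75 for Bra028761 and 12.35 for Bra008010. Of the genes with a difference in silenced plants only, Bra006468 had 11.55, Bra039555 had 10.12, Bra001626 had -13.70 and Bra015774 had -12.10. The opposite genes gave 12.41 for Bra040672, 12.02 for Bra011759, -15.40 for Bra030523 and -15.39 for Bra002132.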

How the results depend on the processing

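Under DESeq2, DESeq2's size factors, library totals, upper-quartile scaling, no low-count filter, separate fits of the genotypes, the replicate block and leaving out each library, all 7 counts (silenced higher, silenced lower, remained, lost, silenced only, opposite, difference called) stayed within 1.5 times the reported ones. At 4-fold the silenced calls were 4016 higher and 4494 lower. At that limit 4150 of the 8656 wild type differences remained and 616 were opposite, and at 1.5-fold 2881 were opposite. With limma on log2(FPKM + 1), 5041 genes were lower in silenced buds and 848 were opposite; that scale shrinks low values. Leaving out 1 library gave 7871 to 8037 higher, 7675 to 7849 lower, 8460 to 8527 remained, 4587 to 4711 lost, 5132 to 5194 silenced only, 1549 to 1577 opposite and 20573 to 20756 called between genotypes. Which direction prevailed in the last count was not stable: all libraries with TMM gave 9982 higher and 10922 lower, and it turned with library totals (10539 and 10399), with limma on log2(FPKM + 1) (11149 and 10989), without silenced bud replicate 1 (10647 and 10104) and without silenced bud replicate 3 (10562 and 10136). With the replicate block 7763 genes were higher and 7692 lower in silenced buds. The deviations of same-numbered silenced buds and stems had correlations of -0.00469 to 0.00485, and not every library there correlated best with its own number. Between silenced and wild type buds every library did, at correlations of 0.00755 to 0.0116. All of these values are small, and the numbers were not taken to pair the samples. No setting reversed a called value of a named gene. Depth limits genes near 0 reads, for which 1 read decided a call between genotypes.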

Other observations

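Losses were called at all levels of expression, and a smaller share of wild type differences could be resolved at low ones. Genes were split into 5 equal groups by their mean CPM over the 4 sample groups. At the highest level 38.2% of 2740 wild type differences were lost in silenced plants, against 20.7% of 4092 at the lowest level. The unresolved share was 0.365% at the highest level and 15.2% at the lowest, so the shares lost are not like for like. The share that remained changed less, between 51.5% at the lowest level and 57.0% at the next one up. With TMM scaling the most abundant genes leaned to stem in both genotypes. In the highest group the median log2 fold change of bud over stem was -0.40 in silenced plants and -0.27 in wild type. In the lowest group the medians were 0.46 in silenced plants and 1.05 in wild type. Of the highest group 16.6% were at least 2-fold higher in silenced buds and 35.3% at least 2-fold lower. Of the lowest group 37.3% were higher in silenced buds and 26.2% lower.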
